A study of Mus musculus with 10 samples.

Results

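The protein-coding mouse genes of the cytosolic ribosome were followed across 10 RNA-sequencing libraries. They were chosen by name: symbols that begin with Rpl or Rps and a number, together with Rplp0, Rplp1, Rplp2, Rpsa and Fau, and without the Rps6k kinases, names ending in -ps and numbered Gm models. The rule found 85 genes among the 28987 listed, of which 50 belong to the large subunit and 34 to the small subunit. The remaining gene, Rps19bp1, encodes a protein that binds the small-subunit protein Rps19 and is no part of the ribosome, and it is kept apart in every count by subunit. Rpl24 and Rpl41 are not analysed here. The 85 genes lie on 20 chromosomes, and 4 of them (Rpl10, Rpl36a, Rpl39 and Rps4x) are X-linked.

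The RNA came from mouse cells that the source label calls primary white adipocytes. They had been digested out of the inguinal fat pad of male mice, aged 6 to 8 weeks and of strain C57BL/6, and cultured until confluent. There were 5 treatments of 24 h with 2 libraries each. They are bacterial lipopolysaccharide (LPS, a ligand of innate immune receptors) at 100 ng/ml, norepinephrine (the sympathetic transmitter that drives fat breakdown) at 1 mM, BAFF at 500 ng/ml and APRIL at 500 ng/ml (both recombinant, both TNF-family factors known for B cell survival), and saline. Whether a group's 2 libraries stem from different mice or dishes is not stated, so each p-value reflects only the spread between the samples at hand, which may be technical. Levels are TPM, transcript abundance scaled to a fixed total per library after correction for length. They can be compared between genes only as far as that correction holds, and only as shares of a library. With TPM alone, sequencing depth is unknown. In cultures of mixed cells, fewer cells of a type and less RNA per cell cannot be told apart.

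The cytosolic ribosome joins a small subunit, which decodes the messenger RNA, to a large subunit, which forms the peptide bond, and almost every ribosomal protein is present once per ribosome. The genes are transcribed in nearly all cells, and their messenger RNAs begin with a run of pyrimidines (the 5′TOP element) through which the mTOR pathway and the protein LARP1 control their translation. Mammalian genomes also hold many retrotransposed, intronless copies of these genes, most of which are pseudogenes. In adipose cells, as in others, ribosome production is known to follow growth signals and nutrient supply.

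The 2 libraries labelled APRIL stood apart from all others. Their expression profiles correlated at 0.85 to 0.886 (Pearson's r across the tested genes, which are not independent replicates) with the other 8 libraries, which correlated among themselves at 0.948 to 0.991. Their Y-linked genes summed to 0.489 and 0.775 TPM, against 93.8 to 123 TPM in the other 8, although all samples are labelled male. They are therefore called the libraries labelled APRIL throughout. Adipoq, the adipocyte hormone adiponectin, was at 299.7 and 100.3 TPM in them and at 379 to 1097 TPM in the other 8. Adipocyte markers did not all move this way: of 7 tested as described below, 3 passed as lower than saline and 1 as higher. The higher one, Pparg, reached 312.8 and 176.9 TPM, while saline held 80.7 and 88.5 TPM. Lep, the hormone of mature fat cells, was at or below 0.806 TPM in the other 8. The B cell marker Ms4a1 was listed at 0 in every library. Another B cell marker, Cd79a, stayed at or below 0.232 TPM in the other 8 but was listed at 0.468 and 2.26 TPM under the APRIL label. Mitochondrially encoded genes took 15.9 and 17.1% of the listed TPM with LPS, 15.9 and 16.9% with norepinephrine, 15.0 and 20.5% with BAFF, and 19.5 and 22.4% in the libraries labelled APRIL, against 20.2 and 22.4% with saline.

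Together the 85 genes took between 5.63 and 7.36% of the listed TPM of a library. The share was 6.21 and 6.31% in the LPS libraries, 6.98 and 6.6% with norepinephrine, 7.36 and 6.45% with BAFF, and 5.63 and 6.12% in the libraries labelled APRIL, against 6.76 and 6.69% with saline. Both LPS libraries and both libraries labelled APRIL were below both saline libraries, whereas norepinephrine and BAFF overlapped saline. With mitochondrially encoded genes left out of the total, norepinephrine no longer overlapped, at 8.30 and 7.94%, against 8.47 and 8.62% with saline. LPS was then at 7.38 and 7.61%, the libraries labelled APRIL at 6.998 and 7.89%, and BAFF, which still overlapped saline, at 8.65 and 8.11%. In all 10 libraries the large-subunit genes summed to more than the small-subunit genes, with a ratio between 1.14 and 1.19. Near-identical copies, described below, are not counted in it. Groups overlapped saline apart from norepinephrine and the libraries labelled APRIL. Their values of 1.14 and 1.16, and 1.16 and 1.14, lay below the 1.18 and 1.17 of saline.

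**Figure D1:**
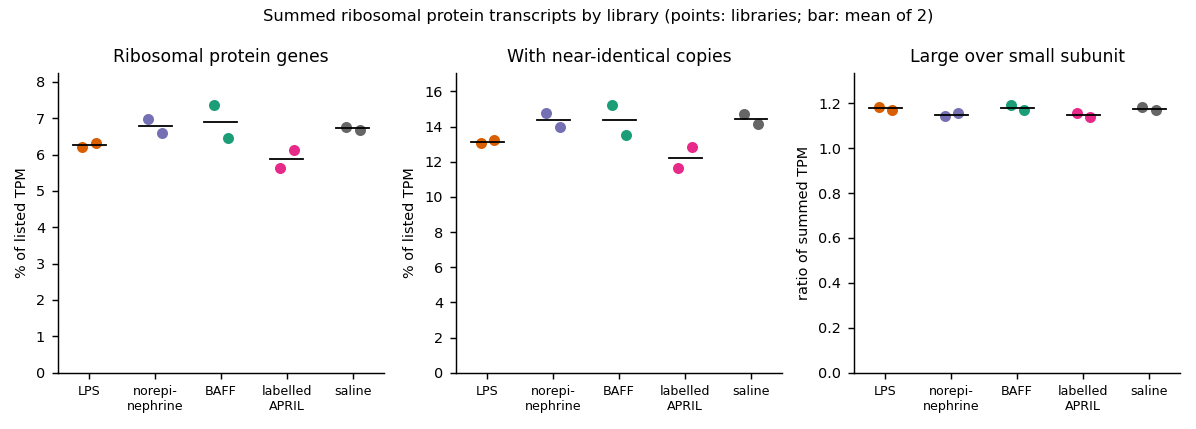
Summed TPM of the ribosomal protein genes in each library as a percentage of all listed TPM, without (left) and with (centre) their near-identical copies, and the ratio of large-subunit to small-subunit sums (right). Points are libraries and bars are means of 2. The LPS libraries and the libraries labelled APRIL lie below saline in the first 2 panels. The ratio, taken without copies, stays between 1.14 and 1.19 in every library.

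Single genes differed widely in level. The mean over the 10 libraries had a median of 544 TPM, the interquartile range was 133 to 1161 TPM (8.75-fold), and 20 of 85 genes were below 100 TPM. The 6 highest were Rpl18 at 3261.5 TPM, Rpl13a at 2341.5 TPM, Rps27 at 2339 TPM, Rplp1 (an acidic stalk protein that helps recruit elongation factors) at 2315 TPM, Rps15a at 2181 TPM and Rps19 at 1838 TPM. Rpl18 was at 3071 and 3179 TPM with LPS, 3310 and 3126 TPM with norepinephrine, 3863 and 3214 TPM with BAFF, and 3065 and 3303 TPM in the libraries labelled APRIL, against 3166 and 3317 TPM with saline. These groups overlapped.

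The 6 lowest tested genes were Rps13 at 3.66 TPM, Rps29 at 6.11 TPM, Rpl31 at 14.9 TPM, Rps19bp1 at 18.2 TPM, Rpl5 (a carrier of the 5S ribosomal RNA) at 20.7 TPM and the paralog Rpl39l at 22.1 TPM. Rps13 ranged from 1.33 to 6.08 TPM over all libraries, and Rps29 from 5.17 to 7.74 TPM. Of the 4 genes below the test's minimum, Rps12 was listed at 0 in all 10 libraries. Fau, which encodes the small-subunit protein eS30 fused to a ubiquitin-like protein, was at 0.142 and 0.017 TPM with LPS, 0.00053 and 0.0035 TPM with norepinephrine, 0.019 and 0.00052 TPM with BAFF, and 0.01 and 0.499 TPM in the libraries labelled APRIL, against 0.0046 and 0.0086 TPM with saline. Rpl3l, the striated-muscle form of Rpl3, was listed at 0 in 6 libraries and at 0.081 TPM or less in the other 4, and Rpl10l, a testis form of Rpl10, at 0 in 8 and at 0.063 TPM or less in the other 2.

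**Figure D2:**
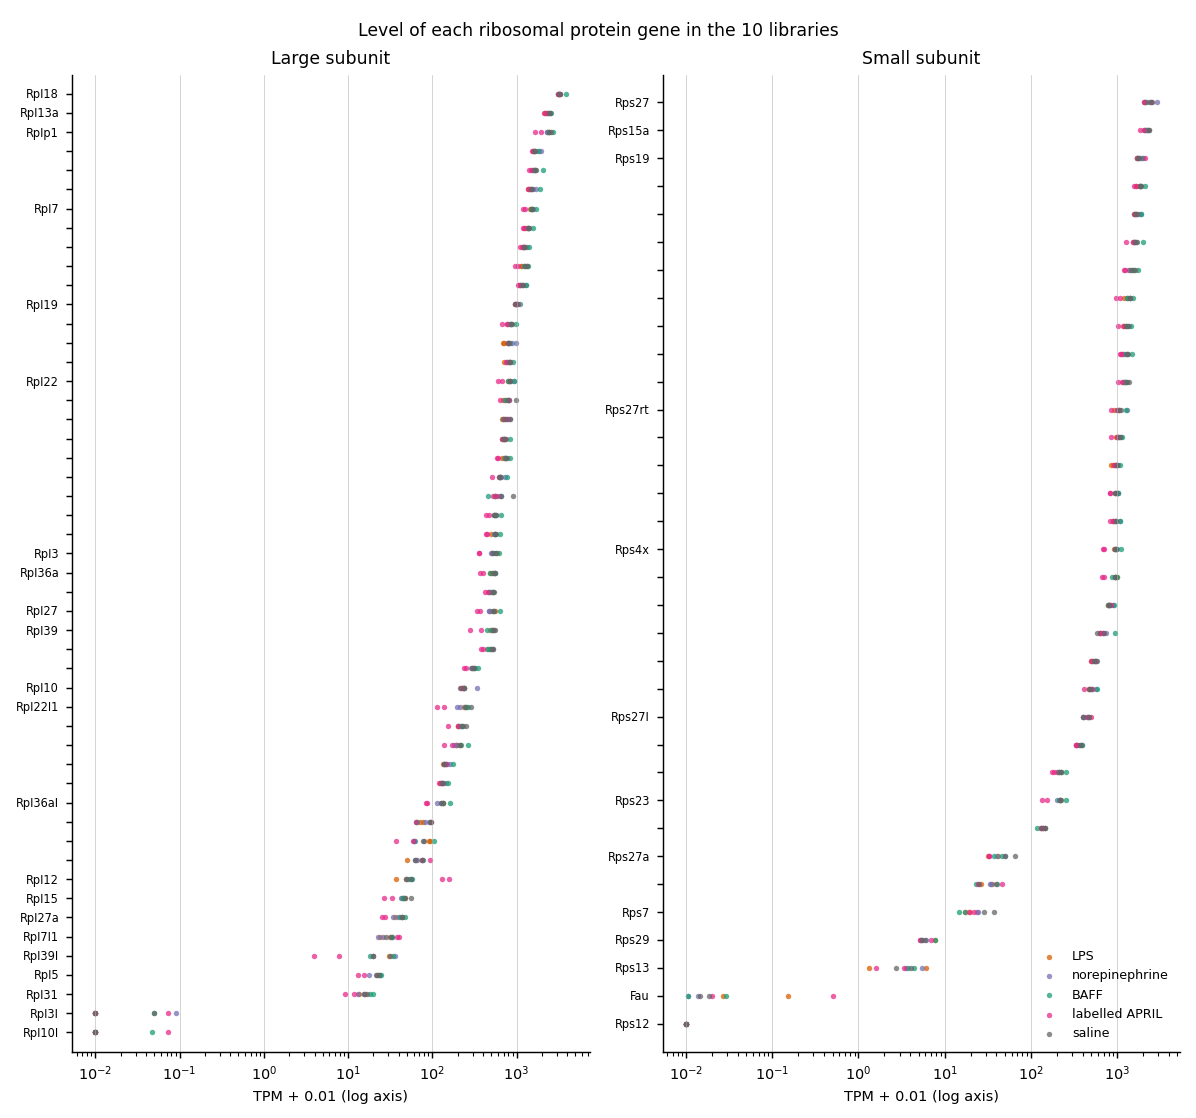
TPM + 0.01 (log axis) of each large-subunit gene (left) and small-subunit gene (right) in the 10 libraries, ordered by mean; colours mark the groups, and only Rps12 and genes described in full, by level, call, spread or paralog pair, carry a label. Most genes form a tight cluster of points, from Rpl18 at 3261.5 TPM on average down to Rps12, which is listed at 0 throughout.

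Near-identical copies of many of these genes are listed beside them. A copy here is a listed gene outside the 85. Its transcript is at least 95% identical to the ribosomal protein transcript over at least 80% of the copy. Rps27 and Rps27rt match each other this closely but, being among the 85, are not counted as copies of one another. Of the 85 genes, 75 had at least 1 listed copy and Rpl21 had the most, 33. There were 373 copies in all; 366 are annotated as pseudogenes and 7 as protein-coding, 57 averaged 100 TPM or more, and 191 averaged under 1 TPM. A gene held less than 50% of the sum of itself and its copies in 31 cases and less than 10% in 16 cases, and 90% or more in 43 cases. Those 43 include Rps27 and Rps27rt. With copies added, the interquartile range was 1.92-fold around a median of 1142 TPM, 58 instead of 33 of 85 genes lay within 2-fold of the median, and 14 of the 20 genes below 100 TPM reached 100 TPM or more.

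The match between gene and copy can be complete, which the first pair below shows. Rps28, whose protein lies at the messenger RNA exit of the small subunit, and its copy Gm10443 share every one of 210 bases, the whole coding sequence (start and stop codons in capitals), which lies on mouse chromosome 17 for the gene and at chr6:86334031-86334240 (plus strand, GRCm38) for the copy. The second pair is a 60-base stretch, bases 106 to 165 of the 207-base copy Gm20430 (chr14:57698013-57698219, plus strand), set beside the same stretch of Rpl12, an acidic-stalk-base protein of the large subunit. The capital marks G136A, the 1 difference over 206 aligned bases, counted from 1 at the copy's 5′ end with the base of Rpl12 first.
Rps28 and Gm10443: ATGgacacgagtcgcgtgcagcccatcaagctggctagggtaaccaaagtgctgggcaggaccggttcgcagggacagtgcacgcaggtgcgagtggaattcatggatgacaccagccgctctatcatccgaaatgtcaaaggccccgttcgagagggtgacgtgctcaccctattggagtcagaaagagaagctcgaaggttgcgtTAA
Rpl12: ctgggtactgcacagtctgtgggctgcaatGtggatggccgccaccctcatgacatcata
Gm20430: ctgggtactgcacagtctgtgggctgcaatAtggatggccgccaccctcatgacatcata

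For these pairs the listed level sat mostly on the copy. Gm10443 averaged 11445 TPM and Rps28 503 TPM, and Gm20430 averaged 10620 TPM and Rpl12 69.6 TPM. The same held for Fau, whose full-length identical copy Gm9843 (402 bases, chr16:76403251-76403652) averaged 744 TPM, and for Rps12, whose copy Rps12-ps3 averaged 437 TPM. Rps13 at 3.66 TPM stood beside Rps13-ps2 at 535 TPM, Rpl31 at 14.9 TPM beside Rpl31-ps8 at 1277.5 TPM, Rps6 (the S6 kinase substrate) at 32.9 TPM beside Rps6-ps4 at 1143 TPM, and Rpl5 at 20.7 TPM beside Gm15500 at 710 TPM. In all, 15 genes had a copy with an identical transcript over its full length at 100 TPM or more. The 3 copies Rpl35a-ps2, Rpl35a-ps3 and Rpl35a-ps4 had the same value in every library, with a mean of 153.9 TPM each. How the authors assigned reads that match both gene and copy is not given in the sources used here, so the level of such a gene on its own is uncertain.

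Not every low gene had an abundant copy. Rps29, a zinc-finger protein of the small subunit, had copies summing to 0.115 TPM and stayed at 6.23 TPM with them. Rpl39l, Rpl7l1, Rps19bp1, Rpl3l and Rpl10l also stayed below 100 TPM. At the other end, Rps28 with 11966 TPM, Rpl12 with 11606 TPM, Rpl38 with 6855 TPM and Rpl17 with 6678 TPM stood above 5000 TPM once copies were added. Their highest copies are short: 210 bases for Gm10443, 207 for Gm20430, 213 for Rpl38-ps2 and 207 for Gm12469. How well the length correction holds for transcripts this short was not tested, so sums that rest on them, and shares of such sums, are uncertain. With copies added the genes took 13.1% of listed TPM with LPS, 14.4% with norepinephrine, 14.4% with BAFF and 12.2% in the libraries labelled APRIL, against 14.4% with saline. The ratio of large-subunit to small-subunit sums was then 1.594 and 1.588 with LPS and 1.628 and 1.574 with BAFF. Both lay above the 1.550 and 1.565 of saline, which they overlapped without copies. Norepinephrine (1.517 and 1.543) and the libraries labelled APRIL (1.542 and 1.501) again lay below saline.

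**Figure D3:**
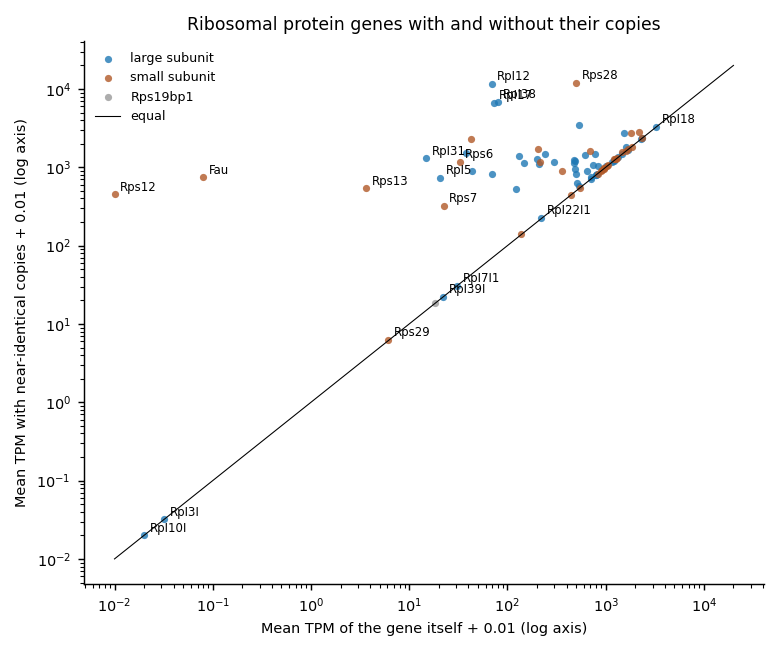
Mean TPM of each ribosomal protein gene over the 10 libraries (x) against the mean of the gene plus its near-identical copies (y), both + 0.01 on log axes; the line marks equal values. Genes far to the left at low own values, among them Rps12, Fau, Rps13, Rpl31 and Rpl5, sit near the level of the others once copies are added, while Rps29, Rpl39l, Rpl7l1, Rpl3l and Rpl10l stay on the line.

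Across libraries the genes varied less than the median gene. For the 80 tested genes with a mean of at least 5 TPM, the SD of log2(TPM + 1) over the 10 libraries had a median of 0.16, against 0.369 for all 9962 such genes, and over the 8 libraries not labelled APRIL 0.107 against 0.187. Rpl19, of the large subunit, had the smallest spread, from 953 to 1083 TPM. Rpl39l had the largest, from 3.98 to 36.4 TPM. Genes were not matched on level for this description.

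Changes were tested with limma on log2(TPM + 1) over the 14166 genes that reached 1 TPM in 2 or more libraries, with p-values adjusted over all of them and 0.05 as the threshold. Of the 85 genes 81 were tested, 48 of the large subunit, 32 of the small subunit and Rps19bp1; Fau, Rps12, Rpl3l and Rpl10l were not. Fold changes are log2 values with their standard error (SE) and understate changes of low genes. The treatments share the same 2 saline libraries, so their values are not independent of each other.

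With LPS the ribosomal protein genes moved little, and 1 of 81 passed the test. None was called higher (2.87% of all tested genes were) and Rps7 was called lower (0.932% of all tested genes were). At an unadjusted p under 0.05, 0 were higher (9.67% of all genes) and 3 lower (6.81%). The log2 fold change was negative for 72 of 81 genes, with a median of -0.11 beside -0.01 for all tested genes, -0.11 for the large subunit and -0.10 for the small. Both LPS libraries lay below both saline libraries for 45 genes, or 55.6%, where this held for 25.5% of all genes, and above them for 2, or 2.47%, where 24.2% of all genes did. With copies added, 60 of 83 genes, or 72.3%, lay below. With mitochondrially encoded genes left out the median was -0.20, beside -0.09 for all tested genes in that fit. The calls over all genes, 407 higher and 132 lower, became 91 to 285 higher and 21 to 89 lower with 1 of the 4 compared libraries left out, and 612 and 310 without the libraries labelled APRIL.

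Rps7, a small-subunit protein that is also known to bind the p53 regulator MDM2, is encoded at chr12:28630854-28635953 (minus strand). It was at 19.9 and 17.2 TPM with LPS, 24.2 and 23.8 TPM with norepinephrine, 14.7 and 17.2 TPM with BAFF, and 21.7 and 19.4 TPM in the libraries labelled APRIL, against 37.1 and 28.8 TPM with saline. All 8 treated libraries were below both saline libraries. The log2 fold change with LPS was -0.79 ± 0.15 (SE; adjusted p = 0.0313). It was the same without the libraries labelled APRIL (adjusted p = 0.0313). The call was lost when any of the 4 compared libraries was left out (adjusted p = 0.0654 to 0.179), in a fit of those 4 alone (0.13) and without the filter on low values (0.0587). Rps7 holds 6.96% of the sum with its 2 copies; the main copy, Gm9493 (chr19:23619749-23620319), differs at C26T, G304A and G362A over 570 aligned bases, counted from the copy's 5′ end with the base of Rps7 first. Gm9493 was at 284 and 291 TPM with LPS, against 314 and 311 TPM with saline. For gene and copies together the log2 fold change with LPS was -0.17 ± 0.09 (limma adjusted p = 0.421).

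Other genes with small unadjusted p under LPS did not pass. Rps27a, a fusion of ubiquitin with a small-subunit protein, was at 32.2 and 41.4 TPM with LPS, against 66.3 and 50.2 TPM with saline, a log2 fold change of -0.65 ± 0.19 (adjusted p = 0.13). Rpl23a, at the exit of the nascent chain tunnel, was at 554 and 558 TPM with LPS, against 914.5 and 652 TPM with saline (-0.47 ± 0.17, adjusted p = 0.208). With copies added these were -0.18 and -0.09. Rpl9 was at 714 and 694 TPM with LPS, against 793 and 821 TPM with saline (-0.20 ± 0.10, adjusted p = 0.369), and Rpl11, which with Rpl5 carries the 5S RNA and binds MDM2, at 694 and 737 TPM with LPS, against 974 and 797 TPM with saline (-0.30 ± 0.15, adjusted p = 0.394). In each of these the 2 groups did not overlap, but the difference did not pass the test. Cell type markers moved with LPS too. Of 7 tested preadipocyte and fibroblast markers 3 were called higher (summed level from 9488 to 10210 TPM with LPS, against 8764 to 9943 TPM with saline). Only 1 of 4 blood markers was tested, and it was called higher (the list summed to 3.73 to 11.6 TPM, against 0.0404 to 0.142 TPM). Of 7 adipocyte markers 1 was called lower (5172 to 5784 TPM, against 8261 to 9191 TPM), as were 2 of 5 smooth muscle and pericyte markers (555 to 779 TPM, against 863 to 969 TPM). Their part in the ribosomal values was not tested.

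With norepinephrine no ribosomal protein gene passed the test. By limma 0 of 81 genes were called in either direction, while 0.614% of all tested genes were called higher and 0.0847% lower; these all-gene shares were themselves unstable. The 87 higher and 12 lower calls over all genes became 690 and 153 without the libraries labelled APRIL, 104 and 41 under median-ratio scaling, and 0 or 1 in each direction when any norepinephrine or saline library was left out, while the count among the 81 genes was 0 in each of these fits. At an unadjusted p under 0.05, 0 were higher (11.2% of all genes) and 2 lower (6.4%). The median log2 fold change was -0.01, beside 0.04 for all genes. With mitochondrially encoded genes left out it was -0.10, beside -0.03 for all genes in that fit. Both norepinephrine libraries lay above both saline libraries for 11 genes, or 13.6% (34.0% of all genes), and below for 21, or 25.9% (22.9%). The large-subunit median was -0.04 and the small-subunit median 0.00, and with copies added both were nearer to 0, at -0.01 and 0.00. Adipocyte markers summed to 14460 to 14892 TPM with norepinephrine, against 8261 to 9191 TPM with saline, with 0 of 7 tested called by limma and 3 higher at an unadjusted p under 0.05. Smooth muscle and pericyte markers summed to 468 to 583 TPM with norepinephrine, against 863 to 969 TPM with saline, with 0 of 5 called; before adjustment 2 had a p under 0.05 and were lower, and 1 was higher. The part of these markers in the ribosomal values was not tested.

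The paralog Rpl22l1 had the second smallest p with norepinephrine. It was at 196 and 216 TPM with norepinephrine, against 244 and 288 TPM with saline, a log2 fold change of -0.36 ± 0.13 (adjusted p = 0.219). Its partner Rpl22 was at 930 and 839 TPM with norepinephrine, against 840.5 and 833 TPM with saline. The groups did not overlap for Rpl22l1 and did for Rpl22. Rps7 had the smallest p (-0.43 ± 0.15, adjusted p = 0.206). Rpl9 was at 972 and 884 TPM with norepinephrine, against 793 and 821 TPM with saline (0.20 ± 0.10, adjusted p = 0.32), and the stalk protein gene Rplp2 at 1934 and 1821 TPM, against 1666 and 1622 TPM (0.19 ± 0.10, adjusted p = 0.355). Rpl7l1, which encodes a relative of Rpl7, was at 22.7 and 26.1 TPM with norepinephrine, against 28.5 and 32.1 TPM with saline (-0.30 ± 0.14, adjusted p = 0.321).

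BAFF gave no call among the 81 genes either. By limma 0 were called higher (0.0% of all tested genes) and 0 lower (0.0141%); at an unadjusted p under 0.05, 0 were higher (2.37% of all genes) and 4 lower (0.473%), namely Rps7, Rpl23a, Rpl38 and Rps27a. The median log2 fold change was 0.06, which is 0.04 below the median of 0.11 over all genes, and under median-ratio scaling of the libraries it was -0.06, so no direction can be given for the group. Both BAFF libraries lay above both saline libraries for 6 genes, or 7.41% (40.4% of all genes), and below for 11, or 13.6% (3.76%). BAFF replicate 1 held the highest share of ribosomal protein transcripts of all libraries, 7.36%, and replicate 2 held 6.45%.

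Each of these 4 genes holds less than 50% of the sum of itself and its copies. Rps7 did not pass at -0.998 ± 0.15 (adjusted p = 0.518), Rpl23a at -0.63 ± 0.17, Rpl38 at -0.54 ± 0.17 and Rps27a at -0.46 ± 0.19 (adjusted p = 0.996 each). Rpl38, known for its part in translating Hox messenger RNAs in mouse embryos, was at 63.6 and 65.3 TPM with BAFF, against 96.1 and 92.6 TPM with saline. With copies added, the log2 fold changes were -0.07 for Rps7, 0.05 for Rpl23a, -0.12 for Rpl38 and 0.07 for Rps27a, and 0 of 83 genes had an unadjusted p under 0.05 in either direction.

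**Figure D4:**
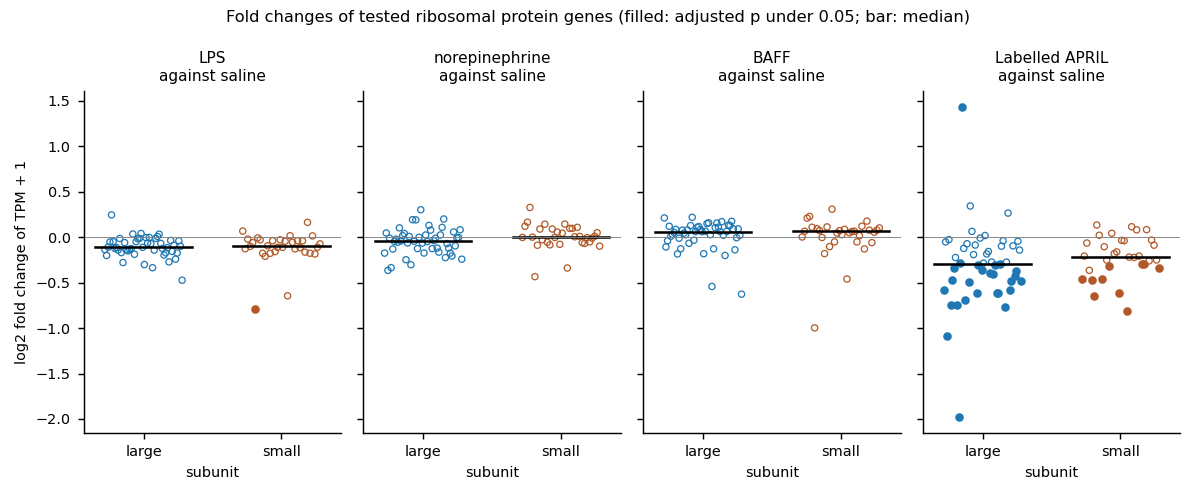
Log2 fold change of TPM + 1 against saline for each tested large-subunit and small-subunit gene under each treatment; filled points passed an adjusted p of 0.05 and bars are medians. Medians lie near 0 with norepinephrine and BAFF, at -0.11 and -0.10 with LPS and at -0.29 and -0.21 in the libraries labelled APRIL, where 35 genes were called lower (filled).

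In the libraries labelled APRIL 35 of 81 genes, or 43.2%, were called lower, where 25.0% of all tested genes were, and 2, or 2.47%, were called higher, where 33.1% of all tested genes were. Called lower were 25 of 48 large-subunit and 10 of 32 small-subunit genes. The log2 fold change had a median of -0.25, beside 0.08 over all genes, with -0.29 for the large and -0.21 for the small subunit; this gap of -0.08 was -0.03 with copies added. Both libraries labelled APRIL lay below both saline libraries for 55 genes, or 67.9% (35.2% of all genes), and above for 4, or 4.94% (42.5%). Of the 35 called falls, 14 were of at least 0.5 on the log2 scale. The number called rested on the libraries used: it was 37 in the fit of all 10 and 18 with the 4 compared libraries alone. In that smaller fit 17 of 81 genes were called lower, where 2773 of all 14166 tested genes were. Those shares lie close together, unlike in the fit of all 10. Called higher was 1 gene, where 3979 of all tested genes were. Leaving out 1 of the 4 libraries also changed the number. The median was -0.24 and -0.25 without each saline library, and -0.17 and -0.33 without APRIL replicates 1 and 2.

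The largest called falls were of paralogs. Rpl39l, a form of Rpl39 known from mouse male germ cells (chr16:10170226-10174911, plus strand), was at 7.69 and 3.98 TPM in the libraries labelled APRIL, against 19.8 and 31.3 TPM with saline, a log2 fold change of -1.98 ± 0.44 (adjusted p = 0.00591). The other treatments gave 19.8 and 30.7 TPM with LPS, 19.7 and 36.4 TPM with norepinephrine, and 17.95 and 33.9 TPM with BAFF, so Rpl39l was lower in both libraries labelled APRIL than in any other, and in each of the 4 other groups replicate 2 was the higher. Its partner Rpl39, at the nascent chain tunnel, was at 278 and 375 TPM in the libraries labelled APRIL, against 561 and 526 TPM with saline (-0.75 ± 0.15, adjusted p = 0.00334).

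Rpl22l1 (chr3:28805436-28807424, plus strand) encodes a form of Rpl22 that is known to be raised in mice without Rpl22. It was at 137 and 112 TPM in the libraries labelled APRIL, against 244 and 288 TPM with saline, a log2 fold change of -1.09 ± 0.13 (adjusted p = 0.000285), while the 6 libraries of LPS, norepinephrine and BAFF held 196 to 266 TPM. Rpl22 was at 598 and 676 TPM in the libraries labelled APRIL, against 840.5 and 833 TPM with saline (-0.40 ± 0.12, adjusted p = 0.0211). The level of Rpl22l1 as a percentage of that of Rpl22 was 22.9 and 16.6% in the libraries labelled APRIL, against 29.0 and 34.6% with saline and 21.1 to 32.2% with the other treatments. Rpl36al, an autosomal form of the X-linked Rpl36a, was at 86.5 and 84.0 TPM in the libraries labelled APRIL, against 128 and 135 TPM with saline (-0.62 ± 0.11, adjusted p = 0.00228), and Rpl36a at 367.5 and 403 TPM, against 557 and 528 TPM (-0.49 ± 0.10, adjusted p = 0.00413). Their ratio overlapped between the 2 groups, at 23.5 and 20.9% in the libraries labelled APRIL and 22.9 and 25.6% with saline.

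Not every paralog fell. Rps27l, a p53 target known in human cells, was at 503 and 456 TPM in the libraries labelled APRIL, against 404 and 470.5 TPM with saline (0.13, adjusted p = 0.37), and it held 13.9 to 24.1% of the level of Rps27 over all libraries. Rpl7l1 was at 37.6 and 39.7 TPM, against 28.5 and 32.1 TPM (0.34 ± 0.14, adjusted p = 0.0728), or 3.13 and 3.13% of Rpl7 in the libraries labelled APRIL, against 1.89 and 2.1% with saline. Rps27rt, a retrotransposed gene whose transcript is identical to that of Rps27 over 91.2% of its length, was listed at 41.0 to 60.3% of the level of Rps27, a division that is uncertain because the 2 share that sequence. Of the 4 X-linked genes 3 were called lower in the libraries labelled APRIL, where 43.2% of the 81 ribosomal protein genes and 25.0% of all tested genes were. These were Rpl36a, Rpl39 and Rps4x, the last at 698 and 704 TPM, against 963 and 983 TPM with saline (-0.47 ± 0.10, limma adjusted p = 0.00509). The other, Rpl10, was at 234 and 216 TPM, against 214 and 240 TPM.

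Several core large-subunit genes were called lower in the libraries labelled APRIL. Rpl3, which reaches toward the peptidyl transferase centre (chr15:80077791-80091868, minus strand), was at 358 and 359 TPM in them, against 524 and 575 TPM with saline, a log2 fold change of -0.61 ± 0.11 (adjusted p = 0.002). Rpl15 was at 27.0 and 33.4 TPM, against 56.2 and 47.9 TPM (-0.77 ± 0.13, adjusted p = 0.00155), Rpl27 at 370 and 335 TPM, against 520 and 539 TPM (-0.59 ± 0.12, adjusted p = 0.00365), and Rpl27a at 25.3 and 27.7 TPM, against 43.5 and 43.6 TPM (-0.70 ± 0.13, adjusted p = 0.00274). In none of these did the groups overlap. Rpl5 was at 13.2 and 15.3 TPM, against 21.4 and 23.2 TPM (-0.62 ± 0.13, adjusted p = 0.00411). With copies added the values were -0.61 for Rpl3, -0.42 for Rpl15, -0.36 for Rpl27, -0.37 for Rpl27a and -0.27 for Rpl5, each at an adjusted p under 0.05.

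In the small subunit the called falls, on own values, were led by Rps27a. It was at 32.4 and 32.4 TPM in the libraries labelled APRIL, against 66.3 and 50.2 TPM with saline (-0.81 ± 0.19, limma adjusted p = 0.00762). Rps7 followed (-0.65 ± 0.15, adjusted p = 0.00688). Rps23, of the decoding centre, was at 136 and 153 TPM in the libraries labelled APRIL, against 223 and 220 TPM with saline (-0.62 ± 0.12, limma adjusted p = 0.00301). Rps27a, Rps7 and Rps23 hold only 1.87, 6.96 and 12.1% of the sum with their copies. On their own they were at 55.57, 62.32 and 65.24% of the saline mean. With copies added they were at 75.61, 83.08 and 75.35%, so this order rests on own values. Rps20 and Rps26 were each -0.46 ± 0.10 and -0.46 ± 0.11 (adjusted p = 0.00447 and 0.00911). Rps2, Rps24, Rpsa (also known as the laminin receptor) and Rps15a were between -0.33 and -0.29. The other large-subunit genes called lower were Rpl17, Rpl31, Rpl21, Rpl23a, Rplp1, Rpl35, Rpl30, Rpl32, Rpl14, Rpl4, Rpl13, Rpl29, Rpl7 and Rpl35a, between -0.74 and -0.29. Among genes of high level, chosen here after their values were seen, Rpl18 was at -0.03, Rps19 at 0.12 and Rpl19 at 0.02, none past the test.

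Rpl12 (chr2:32961559-32965345, plus strand) was called higher. It was at 159 and 129 TPM in the libraries labelled APRIL, against 48.8 and 56.0 TPM with saline and 37.5 to 57.5 TPM with the other treatments, a 2.74-fold difference of means and a log2 fold change of 1.43 ± 0.16 (adjusted p = 0.000206). Its copies went the other way: Gm20430 was at 8823 and 9701 TPM in the libraries labelled APRIL, against 11009 and 11444.5 TPM with saline, and Gm10275 (identical over 634 bases, chr10:29698746-29699380) at 602 and 704 TPM, against 970 and 949 TPM. Rpl12 itself holds 0.599% of the sum. For gene and copies together the log2 fold change was -0.29 ± 0.13 (limma adjusted p = 0.0903), so the direction for Rpl12 depends on whether copies are counted. The other gene called higher, Rps19bp1, was at 31.7 and 25.6 TPM in the libraries labelled APRIL, against 14.4 and 20.4 TPM with saline (0.70 ± 0.20, adjusted p = 0.0185), and lost the call without saline replicate 1 (0.124), without APRIL replicate 1 (0.0922) and in a fit of the 4 libraries alone (0.0598).

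**Figure D5:**
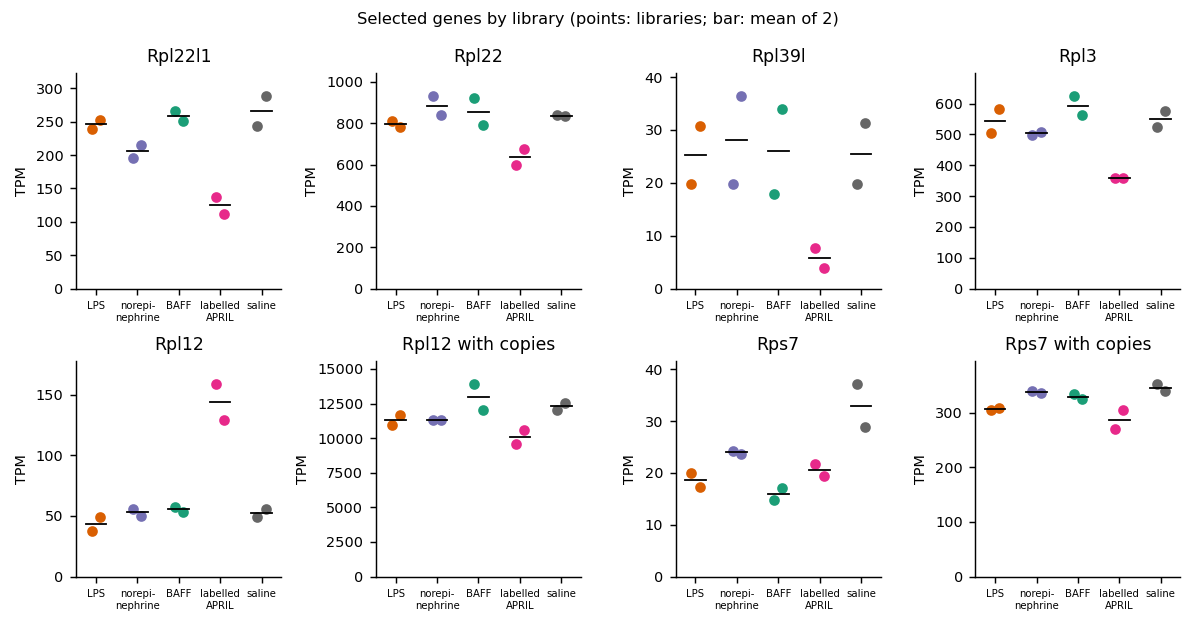
TPM of selected genes by library, with points for libraries and bars for means of 2; panels marked "with copies" give the gene plus its near-identical copies. Rpl22l1, Rpl39l and Rpl3 are lowest in the libraries labelled APRIL; Rpl12 alone is high there at 159 and 129 TPM, but not with copies, and the gap of Rps7 between treated and saline libraries narrows with copies.

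With copies added, 34 genes were called lower in the libraries labelled APRIL, of which 29 were also called on their own values, and 1 higher. Calls on own values alone were Rpl13, Rpl17, Rpl23a, Rpl31, Rpl35a and Rps2 lower and Rpl12 higher, and calls with copies alone were Rpl10a, Rpl34, Rps12, Rps13 and Rps25, all lower. For Rps12, listed at 0 on its own, the copies gave 308 and 382 TPM in the libraries labelled APRIL, against 556 and 492 TPM with saline. Among the 41 tested genes that hold 90% or more of their sum, a division made after the values were seen, 13 were called lower, or 31.7%, with a median of -0.19. Among the other 40 it was 22, or 55.0%, with a median of -0.30, where 25.0% of all tested genes were called lower. BAFF set directly against the libraries labelled APRIL gave 33 of 81 genes, or 40.7%, called higher (28.3% of all tested genes) and 2 lower (29.0%). The 2 were Rpl12 and Rps19bp1. With the 4 compared libraries alone, 12 of 81 were called higher and 2 lower. In that fit 3327 of all 14166 tested genes were called higher and 3537 lower. The share called higher was then below that of all genes. Leaving out 1 library also changed the number.

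Other genes of ribosome production and translation were set beside the ribosomal proteins. In the libraries labelled APRIL, where 33.1% of all tested genes were called higher and 25.0% lower, of 40 tested ribosome biogenesis genes 29 were called higher and 1 lower, with a median log2 fold change of 0.76. Rrp9, a factor of early ribosomal RNA processing, was at 83.1 and 117 TPM in the libraries labelled APRIL, against 16.8 and 20.2 TPM with saline (2.36 ± 0.19), and Nmd3, the export adaptor of the large subunit, at 75.3 and 91.6 TPM, against 21.8 and 24.1 TPM (1.81 ± 0.14). Among 17 tested regulators 10 were called higher and 2 lower: Myc, a transcription factor that raises ribosome production, was at 277 and 322 TPM, against 26.3 and 27.0 TPM (3.44 ± 0.11), and Mdm2, the p53 regulator bound by free Rpl5 and Rpl11, at 577 and 682 TPM, against 39.7 and 41.9 TPM (3.91 ± 0.10). Of 34 translation factors and related 5′TOP transcripts 6 were higher and 5 lower, with a median of -0.03, and of 77 mitochondrial ribosomal protein genes 13 were higher and 26 lower, with a median of -0.15. Each of the 4 genes named here had a limma adjusted p under 0.05.

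Under the other treatments these lists held 0 calls in either direction by limma. At an unadjusted p under 0.05, 6.4% of all tested genes were lower and 11.2% higher with norepinephrine, and 6.81% lower and 9.67% higher with LPS. Of 40 biogenesis genes 17 were lower and 2 higher with norepinephrine (median -0.33), and 2 were lower and 1 higher with LPS (median -0.27). The 77 mitochondrial ribosomal genes had 10 lower and 0 higher with LPS (median -0.16) and 1 lower and 6 higher with norepinephrine (median 0.15). Translation factors had medians of -0.09 with LPS, -0.07 with norepinephrine and 0.08 with BAFF.

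Cell type markers moved in the libraries labelled APRIL along with the ribosomal genes. Of 7 tested adipocyte markers 3 were called lower and 1 higher (summed level from 2645 to 5644 TPM, against 8261 to 9191 TPM with saline). Of 7 preadipocyte and fibroblast markers 5 were called lower (1860 to 2299 TPM, against 8764 to 9943 TPM), of 5 smooth muscle and pericyte markers 4 (135 to 199 TPM, against 863 to 969 TPM), and of 5 endothelial markers 3 (5.01 to 8.59 TPM, against 13.5 to 17.6 TPM). Macrophage markers had 0 calls of 8 and summed to 344 to 504 TPM, against 435 to 1302 TPM. Lymphocyte markers, 2 tested and both called higher, summed to 7.47 to 8.77 TPM, against 2.66 to 2.68 TPM, and skeletal muscle and blood markers had 0 calls. Whether these changes bear on the ribosomal values was not tested, and treatment cannot be told apart from whatever else sets these 2 libraries apart.

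Sequence at the transcription start, which the choice by name did not use, was examined next. RefSeq start sites (GRCm38.p6) were matched for 65 of the 85 genes. Windows of 20 bases before to 20 after the start were searched for only the pyrimidine runs CTTTC and CTTCC. A gene was counted once if any of its windows held the run. On the gene's strand CTTTC was found for 32.3% of the 65 ribosomal protein genes and for 6.44% of all 27025 genes, which include them. On the other strand it was found for 4.62 and 5.67%. CTTCC was in 27.7%, against 10.3% of all genes, on the gene's strand and in 18.5%, against 11.3%, on the other. Either run, which can overlap as in CTTCCTTTC, was on the gene's strand for 49.2% of the ribosomal protein genes and for 15.8% of all genes. Over the full 300 bases, CCGGAAG, the core of sites for ETS-family factors, was on either strand for 38.5%, against 9.93% of all genes. TATAAA was there for 10.8%, against 15.7%. Read on the opposite strand, CCGGAAG is CTTCCGG, which contains CTTCC, so matches to CCGGAAG and to CTTCC can share bases. A match describes letters only, not a bound site. Other pyrimidine runs were not searched for, so a gene without a match can still begin with one.

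The windows of 6 genes, chosen after the values were seen, are given 5′ to 3′ on the gene's strand with matches in capitals, to show where the runs fall; the start is between bases 20 and 21. They lie at chr14:18270967-18271006 (Rpl15, minus), chr17:27635225-27635264 (Rps10, minus), chr19:6057927-6057966 (Fau, plus), chr3:28805488-28805527 (Rpl22l1, plus), chr12:28635934-28635973 (Rps7, minus) and chr4:86857348-86857387 (Rps6, minus). Rpl15, Rps10 and Fau have a run that begins at the first base of the transcript, and Rpl22l1 has 1 further in. Rps7 has 2, the first of them before the start. Rps6 has neither motif in this window, though its transcript begins with other pyrimidines (ctctttttc).
Rpl15: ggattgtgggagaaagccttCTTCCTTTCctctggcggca
Rps10: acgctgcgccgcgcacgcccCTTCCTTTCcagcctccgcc
Fau: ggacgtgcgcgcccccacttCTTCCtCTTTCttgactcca
Rpl22l1: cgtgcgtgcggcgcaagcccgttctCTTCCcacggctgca
Rps7: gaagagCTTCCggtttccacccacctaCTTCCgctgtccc
Rps6: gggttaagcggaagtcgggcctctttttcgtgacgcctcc
In the libraries labelled APRIL, Rpl15 and Rpl22l1 were called lower at -0.77 and -1.09, Rps7 at -0.65, while Rps10 was at 132 and 138 TPM, against 131 and 145 TPM with saline (-0.03 ± 0.12), and Rps6 at 46.2 and 24.1 TPM, against 24.9 and 40.0 TPM (0.08 ± 0.37).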

How the data were processed

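Per the file headers and labels, the authors deposited TPM per gene ID for 10 libraries (total RNA, mirVana extraction, TruSeq libraries). Per the submitters' processing notes they used kallisto and mm10; the version, the annotation release, the summing of transcripts to genes and any filter are not given in the sources used here. Gene symbols, biotypes and transcripts came from GENCODE mouse M21 (27475 of 28987 IDs matched), and promoters from RefSeq GRCm38.p6. Copies were found with BLAST 2.17.0, at 95% identity over 80% of the copy.

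Genes that reached 1 TPM in 2 or more libraries entered a limma fit (version 3.58.1, R 4.3.3) of log2(TPM + 1), with 5 group means over all 10 libraries, a mean-variance trend and Benjamini-Hochberg adjustment; the fit was tested on simulated data. Sequencing depth is unknown, so no counting interval is given. Alternatives changed the pseudocount, filter, scaling, trend, replicate block, mitochondrial genes, copies and libraries used. Named in full are the 6 highest and 6 lowest tested genes, those called (at most 10 in each direction) or the 5 of smallest p in each comparison, paralog pairs and fusions, and the genes of smallest and largest spread; other named genes are said to be chosen later. The members and lists were chosen with earlier results of these data known. A few items are left out of the text.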

Additional observations from a re-analysis of the deposited data

How the results depend on the processing

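With LPS the 1 call (Rps7) became 0 without the filter on low values, with copies summed (with and without the libraries labelled APRIL), in a fit of the 4 compared libraries alone, and 0 to 0 with each replicate left out; the cause was not tested. The large-minus-small median (main -0.01) ranged from -0.028 to 0.024 over those replicates. With norepinephrine that difference of -0.05 was -0.0076 with copies summed, with and without the libraries labelled APRIL. With BAFF the median of 0.06 was -0.059 under median-ratio scaling. In the libraries labelled APRIL the 37 calls became 18 with the 4 libraries alone and 14 to 41 with a replicate left out, and the subunit difference of -0.08 became -0.030 with copies summed. For BAFF against the libraries labelled APRIL the 35 calls became 14 with the 4 libraries alone and 16 to 40 with a replicate left out. Rpl12 reversed to -0.29 with copies summed (limma adjusted p = 0.0903). With the replicate block the calls were 1 for LPS, 0 for norepinephrine, 0 for BAFF, 34 for the libraries labelled APRIL and 33 for BAFF against them. Over all genes the block gave 509 higher and 174 lower calls for LPS (main 407 and 132) and 136 and 31 for norepinephrine (main 87 and 12). Differences between same-numbered libraries correlated at 0.272 to 0.479 among LPS, norepinephrine, BAFF and saline, a hint of a shared factor, and at -0.108 to 0.0264 with the libraries labelled APRIL. With 2 numbers per group and no label on what a number marks, pairing is not established. TPM without counts leaves the precision of low genes unknown.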
